A study of Homo sapiens with 4 samples.

Results

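Collagens were described across 43 genes, taken as the protein-coding entries of the expression table whose symbol has the form COL, digits, A, digits. The whole table lists 63677 genes. Where a symbol occurred more than once (COL11A2, with 7 entries) the entry with the highest mean was kept. Of the 43 genes, 28 passed the filter on low read counts and were tested, and 15 did not. The cells were MDA-MB-231, an established human cell line of triple-negative breast cancer, a tumor type low in estrogen receptor, progesterone receptor and HER2. They were transfected with a control siRNA (siCt, 2 libraries) or with pooled siRNAs targeting AXL (siAxl, 2 libraries), which encodes a receptor tyrosine kinase. Both groups were of 1 cell line and met the same transfection reagent, and siAxl stands for 1 siRNA pool, so that effects of the pool on other transcripts cannot be told apart from those of lower AXL. The labels do not say whether the libraries came from separate cultures, and the p-values therefore measure only the spread between these libraries, which may be technical.

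Collagens are secreted or membrane-bound proteins in which chains wind around each other into a helix rich in glycine and proline. Fibrillar collagens assemble into the banded fibers of connective tissue, type IV collagens form the sheet-like network of basement membranes, and the other families link, cover or anchor these structures. Epithelial cells sit on a basement membrane, and carcinoma cells that cross it meet fibrillar collagen in the stroma.

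The libraries held 39574387 to 44585773 reads on genes, and levels are given as normalized counts, that is reads over the size factor that DESeq2 assigned to each library. Each value below is followed by a log2 fold change of siAxl over siCt on the log2(normalized count + 1) scale, which understates the change of low genes, with its standard error and the adjusted p of limma with Benjamini-Hochberg adjustment over 16064 genes. A gene was called at an adjusted p under 0.05. AXL (ENSG00000167601) had 29189 and 30617 normalized counts in siCt and 8658 and 7141 in siAxl (log2 fold change -1.93, SE 0.0918, limma adjusted p = 0.000585). The targeted transcript was thus lower in both siAxl libraries. Of the genes tested, 1735 were called higher and 1271 lower in siAxl, and 1536 higher and 1745 lower when the libraries were scaled by their total reads instead. ESR1 and PGR, the genes of the estrogen and progesterone receptors, reached at most 3 reads and 2 reads in a library, and the mesenchymal marker VIM lay between 86751 and 99296 normalized counts. Of 7 epithelial and hormone receptor genes 5 were tested, with a median of -0.18. Of these 1 was called higher (ERBB2, the gene of HER2, 0.26) and 2 lower (CDH1, -1.64, and KRT8, -0.31). KRT18 overlaps KRT8 on the opposite strand, with a mean of 11063 reads per library against 17847 for KRT8. The value of KRT8 is therefore uncertain where strand was not used in counting. Of the 5 markers of the line, AXL included, EGFR (0.94) and CAV1 (0.34) were called higher and AXL lower. The part of these shifts in the collagen values was not tested.

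Nearly all called collagens were higher in siAxl. Of the 28 tested genes, 13 were called higher, 1 was called lower and 14 were not called, and the median log2 fold change was 0.31. Over all genes tested 18.7% were called, 10.8% as higher and 7.91% as lower, and the median was -0.0022. All 5 tested type IV chains were called higher, as were 3 of 7 fibrillar chains and 5 of 16 other chains, while the fibrillar COL1A1 was the gene called lower. In 19 genes both siAxl libraries lay above both siCt libraries and in 5 both lay below, against 30.6% and 30.5% of all genes tested. In the remaining 4 the groups overlapped.

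**Figure D1:**
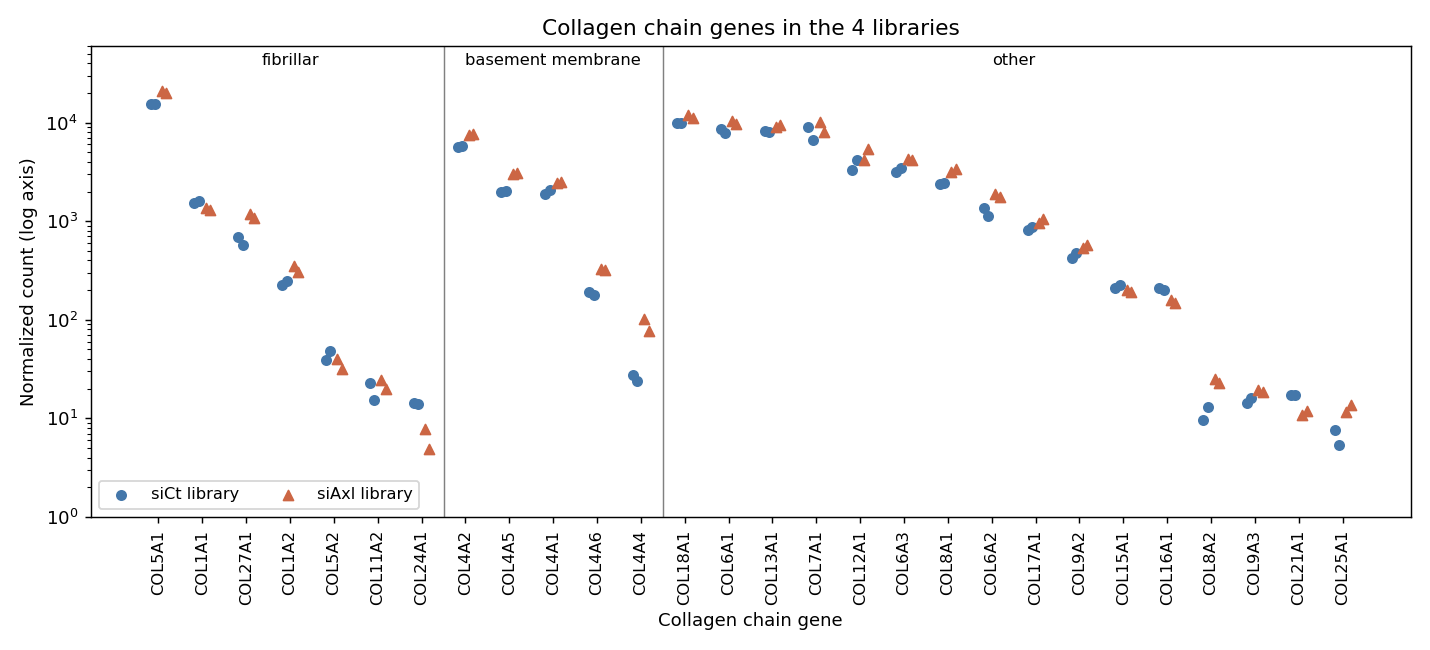
Normalized count of each of the 28 tested collagen genes (log axis) in the 2 siCt libraries (circles) and the 2 siAxl libraries (triangles), ordered by mean within each class. COL5A1 stands highest at 15341 to 20819 normalized counts, and the siAxl points of the 5 type IV chains all lie above the siCt points.

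Summed over the 43 genes, collagens took 0.177% and 0.172% of all reads on genes in the siCt libraries and 0.217% and 0.209% in the siAxl libraries. On the normalized scale the sum was 74413 ± 1230.3 in siCt and 92670.0 ± 1839 in siAxl (SD, n = 2), 1.25-fold higher. The 2 groups did not overlap, but 2 libraries against 2 cannot reach an exact permutation p below 0.333, so the sums were not tested. The sum was 1.37-fold higher for the type IV chains, 1.30-fold for the fibrillar chains and 1.20-fold for the others. The fibrillar sum rested mainly on COL5A1, and without it was 2524 ± 25.3 in siCt and 2860 ± 168 in siAxl (SD, n = 2), 1.13-fold higher. In a bulk library, more cells that express a gene and more RNA per cell cannot be told apart.

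Transcript abundance was concentrated in a few chains. Per kilobase of the longest annotated transcript, COL13A1 was highest in siCt with a mean of 2571 normalized counts per kilobase, followed by COL6A1 with 1941, COL5A1 with 1818 and COL18A1 with 1495. COL4A2 with 877 and COL7A1 with 847 came next. In siAxl COL13A1 was again first with 2898, and COL5A1 with 2404 and COL6A1 with 2361.5 stood close together. Thus the most abundant collagen transcripts were a transmembrane chain, a beaded-filament chain, a fibrillar chain and a multiplexin chain, and not the type I chains of connective tissue.

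The low end held several collagens typical of stroma and cartilage. COL9A1, COL22A1, COL23A1, COL6A5 and COL6A6 had no read in any library, where a count of 0 allows up to 3 reads of the library's total, for counting error only. COL2A1, COL3A1, COL4A3, COL5A3, COL10A1, COL11A1, COL14A1, COL19A1, COL20A1 and COL28A1 had reads but at most 10 in any library, and were not tested. COL3A1, the type III chain abundant in fibroblasts, had 1 read in each siCt library and 7 and 3 reads in the siAxl libraries. Of the stromal fibroblast markers, POSTN was at 0 in all libraries, PDGFRA and THY1 had at most 1 read, DCN at most 2 and FAP at most 3. The summed normalized counts of that list of 8 genes, of which 3 were tested, were 392 and 419 in siCt and 565 and 554 in siAxl. Its 1 called member was PDGFRB, a receptor for platelet-derived growth factor. PDGFRB had 294 and 307 normalized counts in siCt and 456 and 419.6 in siAxl (log2 fold change 0.54, SE 0.0985, limma adjusted p = 0.013). The other 2 tested members were not called, and the median log2 fold change of the 3 was 0.50. LUM, 1 of these 2, ran from -0.97 without siCt 1 to 0.05 without siCt 2 when 1 library was left out.

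**Figure D2:**
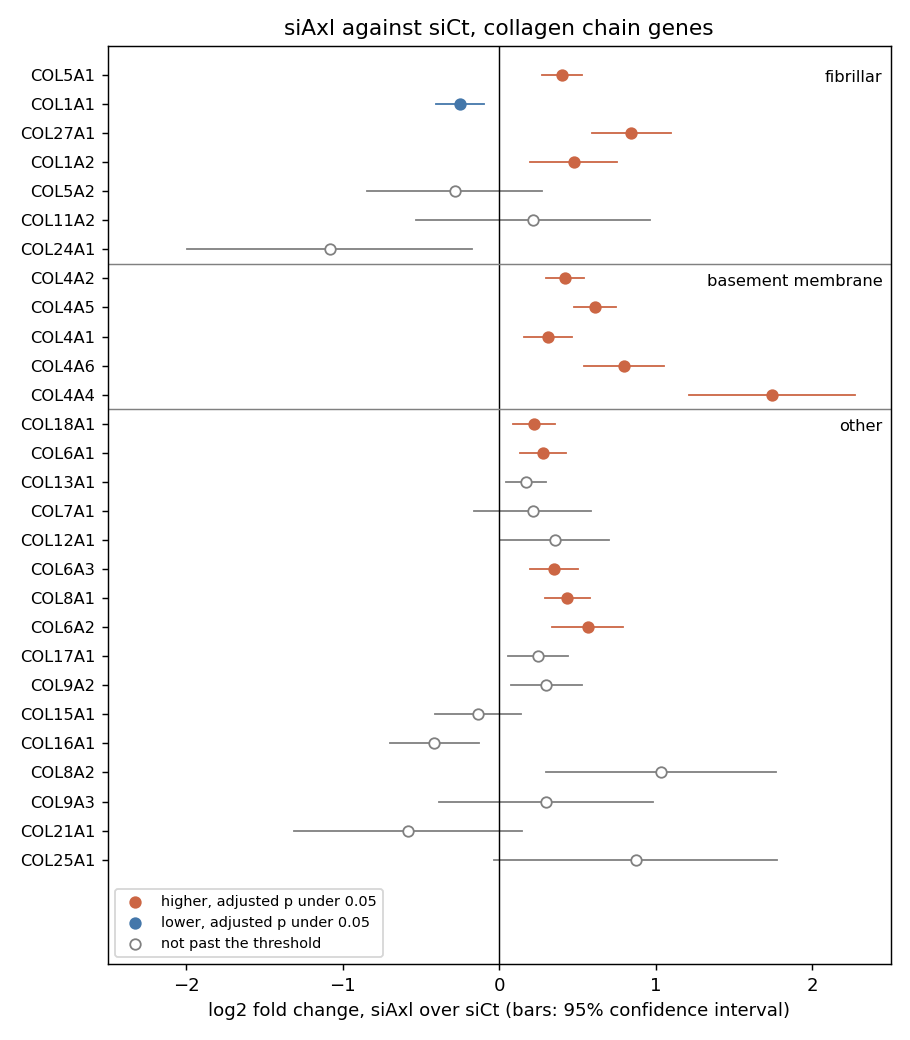
Log2 fold change of siAxl over siCt with its 95% confidence interval (limma) for the 28 tested collagen genes by class, ordered by mean level. Filled points passed the threshold, and the points of the type IV class all lie right of 0, from 0.31 to 1.74, while those of the fibrillar class spread from -1.08 to 0.84.

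All 5 tested basement membrane chains were called higher in siAxl (10.8% of all genes tested), with a median log2 fold change of 0.61. Type IV collagen is made from the products of 6 genes that lie in pairs, head to head, on 3 chromosomes, and its trimers of COL4A1 and COL4A2 chains occur in nearly every basement membrane. COL4A3, COL4A4 and COL4A5 chains form the network of the kidney filter, and COL4A5 also joins COL4A6 in the basement membranes of skin and smooth muscle. In GRCh38.p14 the start sites of RefSeq are 127 bases apart for COL4A1 and COL4A2 on chromosome 13, 419 for COL4A3 and COL4A4 on chromosome 2 and 380 for COL4A5 and COL4A6 on chromosome X. The windows from 250 bases before to 50 bases after the start site are printed because the pairs share these stretches, by 226 bases for COL4A1 and COL4A2, by 82 bases for COL4A3 and COL4A4 and by 121 bases for COL4A5 and COL4A6. Capitals mark CCAAT and its complement ATTGG, and the GC box GGGCGG and its complement CCGCCC, with none of these motifs overlapping another. The windows were COL4A2 at chr13:110307034-110307333 (+ strand), COL4A4 at chr2:227164156-227164455 (− strand), COL4A5 at chrX:108439588-108439887 (+ strand) and COL4A6 at chrX:108439409-108439708 (− strand), each written 5′ to 3′.
COL4A2: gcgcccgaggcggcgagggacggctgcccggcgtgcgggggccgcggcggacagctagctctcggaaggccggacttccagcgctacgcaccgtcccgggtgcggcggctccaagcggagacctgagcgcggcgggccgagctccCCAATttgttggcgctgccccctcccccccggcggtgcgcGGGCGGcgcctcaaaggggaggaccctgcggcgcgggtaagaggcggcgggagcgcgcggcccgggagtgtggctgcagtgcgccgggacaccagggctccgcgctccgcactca
COL4A4: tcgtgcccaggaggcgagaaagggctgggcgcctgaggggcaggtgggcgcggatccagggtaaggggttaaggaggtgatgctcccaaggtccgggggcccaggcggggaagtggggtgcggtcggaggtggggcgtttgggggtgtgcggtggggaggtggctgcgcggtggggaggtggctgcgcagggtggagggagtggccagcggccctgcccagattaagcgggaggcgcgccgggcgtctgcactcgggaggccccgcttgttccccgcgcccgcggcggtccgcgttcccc
COL4A5: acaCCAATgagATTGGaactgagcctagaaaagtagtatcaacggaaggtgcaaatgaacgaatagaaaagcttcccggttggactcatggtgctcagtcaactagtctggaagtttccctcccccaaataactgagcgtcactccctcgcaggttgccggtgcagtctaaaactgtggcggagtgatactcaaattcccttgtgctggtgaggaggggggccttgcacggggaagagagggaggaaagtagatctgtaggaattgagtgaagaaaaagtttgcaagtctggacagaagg
COL4A6: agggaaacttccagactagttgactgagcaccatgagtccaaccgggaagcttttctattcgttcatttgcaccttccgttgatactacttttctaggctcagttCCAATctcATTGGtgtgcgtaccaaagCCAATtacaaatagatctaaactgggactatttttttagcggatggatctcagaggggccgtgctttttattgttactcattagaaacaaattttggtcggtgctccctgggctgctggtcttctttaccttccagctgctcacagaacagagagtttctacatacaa
The letters CCAAT stood 1 time in the COL4A2 window, 2 times in that of COL4A5 and 3 times in that of COL4A6, on either strand. The 2 of the COL4A5 window are the same bases as 2 of the 3 in the COL4A6 window, within their shared stretch. The COL4A4 window held neither motif, and the windows of COL4A1 and COL4A3 are not printed. CCAAT was found in 34.6% of the 35116 promoter windows of the table and in 10 of the 31 collagen windows. The GC box was found in 45.0% of all windows and in 18 of the 31 collagen windows. A match is a description of the letters only, and 31 of the 43 collagens had a window in the table.

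The more abundant pair, COL4A1 and COL4A2, had the smaller changes of the class. COL4A1 (ENSG00000187498) had 1901 and 2065 normalized counts in siCt and 2431 and 2489 in siAxl (log2 fold change 0.31, SE 0.0655, limma adjusted p = 0.0206). COL4A2 (ENSG00000134871) had 5653 and 5735 in siCt and 7522 and 7722 in siAxl (0.42, SE 0.0524, limma adjusted p = 0.00393). Both genes were higher in each siAxl library than in either siCt library, 1.24-fold and 1.34-fold in the means. Their ratio per kilobase, COL4A2 over COL4A1, was 3.03 and 2.83 in siCt and 3.15 and 3.16 in siAxl, a change of 1.08-fold.

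The pair on chromosome X rose further. COL4A5 (ENSG00000188153) had 1972 and 2001 normalized counts in siCt and 3000.1 and 3069.7 in siAxl, 1.53-fold higher (log2 fold change 0.61, SE 0.0566, limma adjusted p = 0.00208). COL4A6 (ENSG00000197565) had 192 and 179.9 in siCt and 325 and 321 in siAxl, 1.74-fold higher (0.80, SE 0.108, limma adjusted p = 0.00509). COL4A6 stayed far below COL4A5 per kilobase, with ratios of 0.0934 and 0.0863 in siCt and 0.104 and 0.101 in siAxl. COL4A5 per kilobase was 1.06 and 0.989 times COL4A1 in siCt and 1.26 in both siAxl libraries.

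COL4A4 had the largest log2 fold change among the 28 tested collagens, from a low level. It had 27.8 and 23.8 normalized counts in siCt (29 and 22 reads) and 101.0 and 77.6 in siAxl (104 and 79 reads), with a log2 fold change of 1.74 (95% confidence interval 1.22 to 2.27, SE 0.224, limma adjusted p = 0.00433). The mean rose 3.46-fold, from 25.8 ± 2.81 to 89.3 ± 16.5 (SD, n = 2), and the groups were far apart. Its partner at the same locus, COL4A3, had only 3 and 1 reads in siCt and 5 and 3 in siAxl, and was not tested. The 7-base word CACATCA, which was singled out with earlier results of these data known, stands 1 time in the annotated 3′ UTR of COL4A4, and also in COL18A1 and COL25A1. These are 3 of the 28 tested collagens, against 11.3% of 13062 tested genes with an annotated 3′ UTR, and its part in their values was not tested.

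Of the type IV chains, COL4A2, COL4A4, COL4A5 and COL4A6 kept their call under every alternative tried. COL4A1 did not pass without siAxl 1 (0.33, limma adjusted p = 0.0655), without siAxl 2 (0.29, 0.0842) or with every gene that had a read included (0.31, 0.066), in all cases with the same sign.

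Fibrillar chains moved in both directions. Of 11 genes 7 were tested, 3 were called higher and 1 lower (10.8% and 7.91% of all genes tested), and the median log2 fold change was 0.21. COL5A1 (ENSG00000130635), a chain of type V collagen, which starts and limits fibril growth, had 15341 and 15455 normalized counts in siCt and 20819 and 19913 in siAxl (log2 fold change 0.40, SE 0.0547, limma adjusted p = 0.00509). It was higher in both siAxl libraries, 1.32-fold in the means, and made up 20.7% of collagen counts in siCt and 22.0% in siAxl. COL27A1 (ENSG00000196739), a fibrillar chain of cartilage, had 692 and 578 normalized counts in siCt and 1197 and 1079 in siAxl, 1.79-fold higher (0.84, SE 0.106, limma adjusted p = 0.00406).

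The chains of type I collagen, the main collagen of bone, skin and tendon, went in opposite directions. COL1A1 (ENSG00000108821) had 1546 and 1599 normalized counts in siCt and 1350.0 and 1291 in siAxl, a fold of 0.84 (log2 fold change -0.25, 95% confidence interval -0.41 to -0.10, SE 0.0651, limma adjusted p = 0.0378). COL1A2 (ENSG00000164692) had 225 and 248 in siCt and 352 and 309 in siAxl, a fold of 1.39 (0.48, SE 0.118, limma adjusted p = 0.0333). Neither gene had overlapping groups. The ratio of COL1A2 to COL1A1 per kilobase was 0.181 and 0.193 in siCt and 0.324 and 0.297 in siAxl, 1.66-fold higher. Within every library COL1A1 was thus the more abundant chain, and by a smaller margin in siAxl.

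The calls of the type I chains depended on single libraries. COL1A1 did not pass without siCt 2 (log2 fold change -0.23, limma adjusted p = 0.116), siAxl 1 (-0.28, 0.107) or siAxl 2 (-0.22, 0.185), and COL1A2 did not without siAxl 1 (0.38, 0.181) or siAxl 2 (0.57, 0.0541). Neither passed with every gene that had a read included (0.0859 and 0.0893), and COL1A1 had an adjusted p of 0.0518 with DESeq2.

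COL5A2, the partner chain of COL5A1, had 39.3 and 47.7 normalized counts in siCt and 39.8 and 31.4 in siAxl, and the groups overlapped (log2 fold change -0.28, 95% confidence interval -0.84 to 0.28, limma adjusted p = 0.451). Per kilobase it stood at 0.0031 and 0.0037 of COL5A1 in siCt and at 0.0023 and 0.0019 in siAxl. COL11A2, a chain of the type XI collagen of cartilage, also overlapped, with 23.0 and 15.2 in siCt and 24.3 and 19.7 in siAxl (0.21, 95% confidence interval -0.53 to 0.96, limma adjusted p = 0.686). COL24A1 had 14.4 and 14.1 in siCt and 7.77 and 4.91 in siAxl, from 15, 13, 8 and 5 reads (-1.08, 95% confidence interval -1.99 to -0.17, limma adjusted p = 0.0952). COL24A1 was below siCt in both siAxl libraries but did not pass the threshold. Among the alternatives COL24A1 passed as lower only with the replicate block (limma adjusted p = 0.0467).

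**Figure D3:**
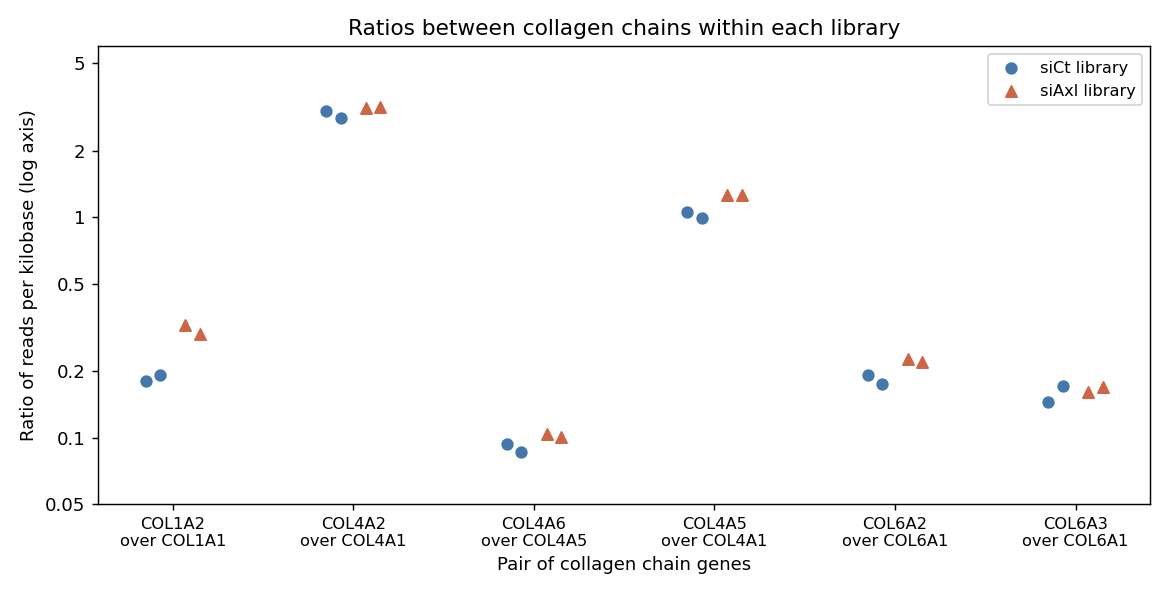
Ratio of normalized counts per kilobase between collagen chains (log axis) in each of the 2 siCt libraries (circles) and 2 siAxl libraries (triangles). COL1A2 over COL1A1 moved from 0.181 and 0.193 to 0.324 and 0.297, while COL6A3 over COL6A1 overlapped between the groups.

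Type VI collagen, which forms beaded filaments around cells, had all 3 of its tested chains called higher (10.8% of all genes tested), with a median of 0.35. COL6A1 had 8535 and 7920.5 normalized counts in siCt and 10296 and 9720.0 in siAxl (log2 fold change 0.28, SE 0.0624, limma adjusted p = 0.0238). COL6A2 had 1347 and 1133 in siCt and 1908 and 1752 in siAxl (0.57, SE 0.0957, limma adjusted p = 0.0103). COL6A3 had 3140.4 and 3461 in siCt and 4229.7 and 4184 in siAxl (0.35, SE 0.0648, limma adjusted p = 0.0135). In all 3 chains both siAxl libraries lay above both siCt libraries, against 30.6% of all genes tested. The folds of the means were 1.22, 1.48 and 1.27.

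Per kilobase, COL6A2 stood at 0.193 and 0.175 of COL6A1 in siCt and at 0.227 and 0.221 in siAxl, and COL6A3 at 0.145 and 0.172 in siCt and at 0.162 and 0.170 in siAxl. The latter ratio overlapped between the groups. COL6A1 did not pass without siCt 2 (log2 fold change 0.23, limma adjusted p = 0.0726), without siAxl 1 (0.24, 0.121), with a trend over GC content and length removed (0.17, 0.0505) or with every gene that had a read included (0.28, 0.078). COL6A3 did not pass without siAxl 1 (0.34, 0.0503), and with every gene included neither it nor COL6A2 did (0.0549 for each).

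Among the remaining chains, COL8A1 and COL18A1 were called higher. COL8A1, a short-chain collagen of vessel walls and the cornea that forms a hexagonal network, had 2384 and 2435 normalized counts in siCt and 3153 and 3370.4 in siAxl, 1.35-fold higher (log2 fold change 0.44, SE 0.0609, limma adjusted p = 0.00555). COL18A1, a multiplexin whose end fragment is endostatin, had 9891 and 9807 in siCt and 11901 and 11091 in siAxl, 1.17-fold higher (0.22, SE 0.0577, limma adjusted p = 0.0384). The groups did not overlap in either gene. COL8A1 kept its call under every alternative tried, while that of COL18A1 was lost without any 1 of the 4 libraries (0.17 to 0.27, limma adjusted p 0.0571 to 0.239). With the trend over GC content and length removed the change of COL18A1 was 0.06 (adjusted p = 0.499), and its adjusted p was 0.0557 with scaling by library size and 0.098 with every gene included.

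Other abundant chains had higher means in siAxl without passing. COL13A1, a transmembrane collagen of cell junctions, had 8281 and 8107 normalized counts in siCt and 9045 and 9429 in siAxl (log2 fold change 0.17, 95% confidence interval 0.05 to 0.30, limma adjusted p = 0.0666), and passed where the libraries were scaled by TMM (0.042 with edgeR and 0.0409 with limma), but not with edgeR on DESeq2 size factors (0.0691). COL7A1, the chain of the anchoring fibrils below the epidermis, had 9058 and 6649.5 in siCt and 10134 and 7993 in siAxl (0.21, 95% confidence interval -0.16 to 0.59, limma adjusted p = 0.391). Its groups overlapped, and the libraries numbered 1 were the higher ones in both groups. COL12A1, which lies on the surface of fibrils, had 3299 and 4215 in siCt and 4182 and 5448 in siAxl (0.36, 95% confidence interval 0.01 to 0.70, limma adjusted p = 0.139), and here the libraries numbered 2 were higher and the groups also overlapped. Both rested on single libraries. COL7A1 had a log2 fold change of 0.44 without siCt 1 (limma adjusted p = 0.000159) and 0.38 without siAxl 2 (0.13), but -0.0093 without siCt 2 (0.966) and 0.04 without siAxl 1 (0.896). COL12A1 had 0.53 without siCt 2 (limma adjusted p = 1.9e-05) and 0.55 without siAxl 1 (0.0274), but 0.18 without siCt 1 (0.161) and 0.17 without siAxl 2 (0.45). COL12A1 also passed with the trend over GC content and length removed (0.31, 0.0489), while COL7A1 did not (0.06, 0.809). With the replicate number as a block all of COL13A1, COL7A1 and COL12A1 passed (limma adjusted p 7.05e-05, 2.66e-06 and 2.96e-10), although the labels do not say what a shared number means.

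The last 8 tested chains had means of 9.62 to 927 normalized counts and none was called, with adjusted p from 0.0558 to 0.521. In 5 of them siAxl was above siCt in both libraries (log2 fold changes 0.25 to 1.03) and in 3 below (-0.58 to -0.13). Over all genes tested 30.6% were above and 30.5% below in this way. Of the FACIT family, whose members attach to fibrils, 0 of 5 tested genes were called by limma. At an unadjusted p under 0.05, 2 were higher and 1 was lower in limma, and edgeR and DESeq2 called 0. In alternative limma fits on all 4 libraries, COL16A1 passed as lower with scaling by library size, with the GC and length trend removed and with the replicate block. COL9A2 passed as higher with the replicate block, and COL12A1 as given above. With 1 library left out, the log2 fold change of COL9A2 ran from 0.22 without siCt 1 to 0.38 without siCt 2. With DESeq2 size factors and no replicate block, limma on all 4 libraries, edgeR and DESeq2 called 0 of 3 transmembrane collagens. At an unadjusted p under 0.05, 2 were higher in limma. COL13A1 passed with TMM scaling in both edgeR and limma, and with the replicate block. COL17A1 and COL8A2, both among these 8 chains, also passed as higher with the block. COL9A3, 1 of these 8, was chosen after its values were seen because it overlaps TCFL5 on the opposite strand, which had a mean of 2019 reads per library against 17.3 for COL9A3. The strand setting of the counting is not given in the sources used here, so that its value is uncertain.

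Collagen chains are modified and folded in the endoplasmic reticulum before they are secreted. Of 24 genes listed for this synthesis, all were tested, 16 were called higher and 0 lower by limma (10.8% and 7.91% of all genes tested), with 0 lower at an unadjusted p under 0.05, and the median log2 fold change was 0.35. CREB3L1, a transcription factor of the endoplasmic reticulum that acts on collagen genes, had 2571 and 2364 normalized counts in siCt and 4305 and 4369.7 in siAxl (log2 fold change 0.81, SE 0.0627, limma adjusted p = 0.00136). PLOD1, a lysyl hydroxylase, had 9968 and 10032 in siCt and 14838 and 14955 in siAxl (0.57, SE 0.0512, limma adjusted p = 0.00184). PLOD2, the lysyl hydroxylase of the collagen telopeptides, had 10368 and 10449 in siCt and 15431 and 15608 in siAxl (0.58, SE 0.0514, limma adjusted p = 0.00184). Replicates of these 3 genes lay close together and the groups were well separated.

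Outside the cell, propeptides are cut off and lysines are oxidized for cross-linking. Of 14 genes listed, 11 were tested and 5 were called higher and 0 lower by limma (10.8% and 7.91% of all genes tested). Again 0 were lower at an unadjusted p under 0.05, and the median was 0.25. LOX, which oxidizes lysines of collagen and elastin, had 2904 and 2809.5 normalized counts in siCt and 5005 and 4761 in siAxl (log2 fold change 0.77, SE 0.0577, limma adjusted p = 0.00136). FURIN, a proprotein convertase, had 2748 in both siCt libraries and 4085 and 4296 in siAxl (0.61, SE 0.0568, limma adjusted p = 0.0021). LOXL1, a relative of LOX, had 417 and 334 in siCt and 670.1 and 679 in siAxl (0.85, SE 0.119, limma adjusted p = 0.00555). LOXL1-AS1 overlaps it on the opposite strand with a mean of 504 reads per library against 531 for LOXL1, so that the value of LOXL1 is uncertain where strand was not used in counting.

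Part of the genes for binding collagen, and for breaking it down or inhibiting its breakdown, were called higher. The degradation list below holds enzymes together with their inhibitors, and the inhibitor genes TIMP1 and TIMP2 were among its called members. Of 10 receptor genes 8 were tested and 5 were called higher, with a median of 0.41, and of 12 degradation genes 10 were tested and 6 were called higher, with a median of 0.37. In both lists limma called 0 lower, with 0 lower at an unadjusted p under 0.05. Over all genes tested 10.8% were called higher and 7.91% lower. MRC2, an endocytic receptor that takes up collagen fragments, had 1274 and 1268 normalized counts in siCt and 2523 and 2342 in siAxl (log2 fold change 0.93, SE 0.0656, limma adjusted p = 0.00113). DDR1, a receptor tyrosine kinase for collagen, had 5138 and 5414 in siCt and 7142 and 7239 in siAxl (0.45, SE 0.0552, limma adjusted p = 0.00385). ITGA10, a collagen-binding integrin subunit, had 861 and 546 in siCt and 2122 and 1240.1 in siAxl (1.24, SE 0.277, limma adjusted p = 0.0247), with the widest spread among the receptors named here, and its adjusted p was 0.0537 with DESeq2 and 0.113 with every gene that had a read included.

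In the degradation list, MMP1, the interstitial collagenase, had 5789.8 and 6197 normalized counts in siCt and 11326 and 15096 in siAxl (log2 fold change 1.13, SE 0.124, limma adjusted p = 0.003). MMP14, a membrane-bound collagenase, had 46697 and 43508 in siCt and 61632 and 63145 in siAxl (0.47, SE 0.0644, limma adjusted p = 0.00528). TIMP2, an inhibitor of these enzymes, had 26914 and 26339 in siCt and 33846 and 34921 in siAxl (0.37, SE 0.0561, limma adjusted p = 0.00722). An enzyme and its inhibitor were therefore both higher in each siAxl library.

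**Figure D4:**
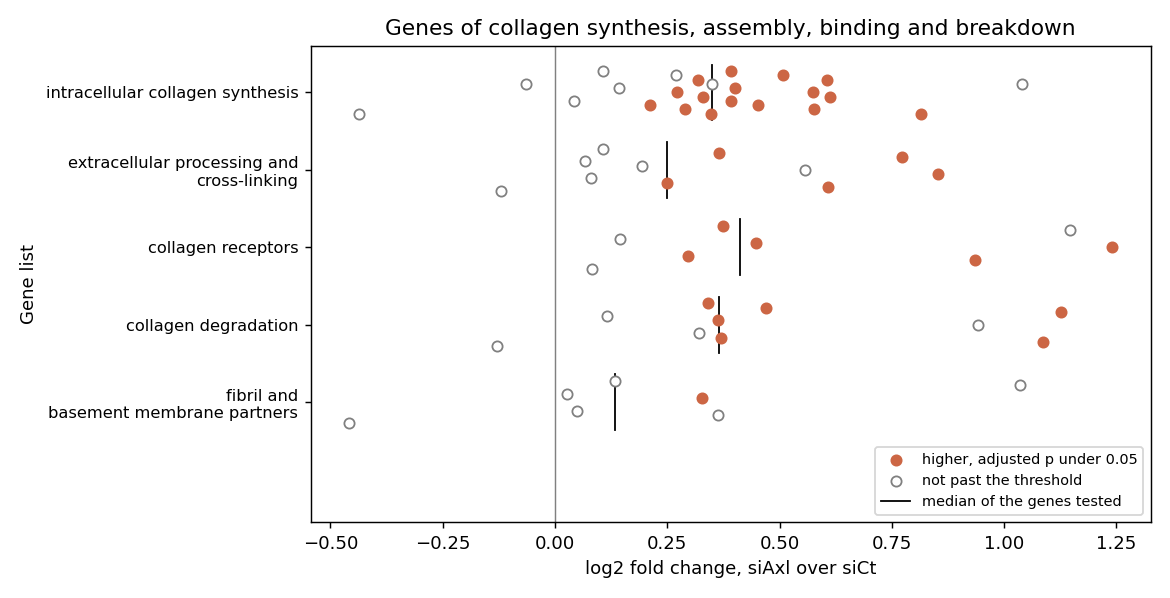
Log2 fold change of siAxl over siCt for the tested genes of 5 lists of collagen biology, 1 point per gene, with filled points past the threshold and a bar at the median of each list. The medians run from 0.13 for the fibril and basement membrane partners to 0.41 for the collagen receptors, and no filled point lies left of 0.

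The proteins that share fibrils and basement membranes with collagen had 1 of 7 tested genes called higher, close to the 10.8% of all genes tested. By limma on all 4 libraries 0 were called lower, with 0 lower at an unadjusted p under 0.05 and a median of 0.13. The called gene was LAMA5, a laminin chain of basement membranes, with 23108 and 21594 normalized counts in siCt and 29355 and 26776 in siAxl (log2 fold change 0.33, SE 0.0689, limma adjusted p = 0.0206). It did not pass without siCt 2 (0.28, limma adjusted p = 0.0515), without siAxl 1 (0.26, 0.108), with the trend over GC content and length removed (0.16, 0.174) or with every gene included (0.33, 0.074). Of this list 0 genes were called higher with every gene included or with the GC and length trend removed, and 3 with the replicate block. When 1 library was left out, the log2 fold change of LUM ran from -0.97 to 0.05, that of HSPG2 from -0.19 to 0.28 and that of SPARC from 0.64 to 1.43. NID1, the basement membrane protein nidogen, had 0 reads in all 4 libraries.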

How the data were processed

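RNA of MDA-MB-231 cells was sequenced on an Illumina HiSeq instrument in 2 siCt and 2 siAxl libraries, grouped by their labels. The authors' processing notes name CASAVA 1.8, TopHat2 2.0.10, HTSeq 0.5.3, DESeq2 1.4.5 and GRCh37, while the strand setting and the annotation are not given in the sources used here. The authors deposited 1 table of normalized counts per gene, a signal in which each library's reads are divided by its DESeq2 size factor. Its fold changes, errors and p-values were not used, and per-sample columns not used numbered 0. In each library 100% of values were whole multiples of 1 read (tolerance 0.01), so reads were recovered. They summed to 44281982 (siCt 1), 39574387 (siCt 2), 44585773 (siAxl 1) and 44559547 (siAxl 2). Of 63677 genes, 27108 had a read.

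Genes passing filterByExpr of edgeR 4.0.16 (minimum count 10) on the recovered reads, 16064 in all, were tested with limma 3.58.1 (lmFit, eBayes with trend, R 4.3.3) on log2(normalized count + 1) with Benjamini-Hochberg adjustment. The code was tested on simulated data. edgeR's quasi-likelihood test on the recovered reads called 3122 genes. Alternatives were pseudocounts of 0.5 and 8, no filter, edgeR, DESeq2 1.42.0, TMM or library size scaling, removal of a spline (4 degrees of freedom) over GC content and length, each library left out, a replicate block, an adjusted p under 0.01, summed entries of a repeated symbol, and a wider basement membrane class. Lengths, GC content and 3′ UTRs came from GENCODE 29, and promoters from RefSeq on GRCh38.p14, neither being the authors' build.

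The collagens, the gene lists and the 7-base word were chosen with earlier results of these data known. Values per library are given for tested fibrillar and basement membrane chains, called chains, chains among the 10 highest by mean, the 3 smallest adjusted p in each direction of each of the 5 lists of collagen biology, and AXL.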

Additional observations from a re-analysis of the deposited data

How the results depend on the processing

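Under the 14 alternatives tried for each gene (13 for 7 low collagens to which DESeq2 gave no adjusted p), none of the collagens or listed genes that were called changed direction. Of the 14 called collagens 7 kept their call in all of them (COL27A1, COL4A2, COL4A4, COL4A5, COL4A6, COL5A1 and COL8A1), and of the 14 not called 8 passed under at least 1. The 13 collagens called higher became 7 when every gene with a read was included and 7 at an adjusted p under 0.01, and 9 to 15 when 1 library was left out. The 1 called lower became 0 with every gene included, with DESeq2 and at an adjusted p under 0.01, 2 with scaling by library size and with the GC and length trend removed, and 0 to 1 when 1 library was left out. At an unadjusted p under 0.05, 3 collagens were lower with limma and with edgeR, and 1 with DESeq2, which gave 21 of the 28 an adjusted p. The median log2 fold change of the basement membrane class was 0.68 with every gene included, 0.58 with scaling by library size, 0.56 with the GC and length trend removed, 0.31 in the wider class, and 0.59 to 0.63 with 1 library left out. That of the other collagens was 0.18 with the GC and length trend removed, 0.33 in the wider class, and 0.23 to 0.34 with 1 library left out. The fibrillar median ran from -0.072 without siCt 2 to 0.40 without siCt 1. With scaling by library size 46.8% of all calls were higher, against 57.7%, and the median of all genes was -0.03. All genes called numbered 3006, against 1097 with every gene included, 1301 without siAxl 1 and 1518 without siAxl 2. Of the list of 24 synthesis genes, 10 to 18 were called higher across the alternatives. With every gene included, 3 processing and cross-linking genes, 2 receptor genes and 4 degradation genes were called higher. With the replicate block these counts were 6, 6 and 8. The causes of these differences were not tested. The number of genes tested was larger where all were included, and the libraries were fewer where 1 was left out.

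The labels number the libraries 1 and 2 in each group, and the deviations of same-numbered libraries from their group means had a Pearson correlation of 0.62 over 12088 genes, which are not independent replicates. Mitochondrial reads made up 3.70% in siCt 1 and 3.78% in siAxl 1, and 2.11% in siCt 2 and 2.28% in siAxl 2. With 2 pairs and no label of a shared culture or day, what the same-numbered libraries share is not known. A fit with the replicate block called 19 collagens higher and 3 lower, and 3737 genes higher and 3573 lower in all.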
